A study of Mus musculus with 10 samples.

Results

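The genes described here encode enzymes of glycogen synthesis and a close relative of 1 of them, Pgm2. Their symbols are Pgm1, Pgm2, Ugp2, Gyg, Gys1, Gys2 and Gbe1, and all 7 were found by symbol among the 24470 gene entries of the count table. They are called glycogen synthesis genes here. The study asked what happens in the fetal testis when glycogen breakdown is blocked. From each of 5 male C57BL/6 mouse embryos at E12.5, both gonads were cultured for 48 h with the mesonephros attached, 1 gonad in 75 µM of the glycogen phosphorylase inhibitor CP 316819 (GPI) and its partner in DMSO as vehicle. The gonads were then separated from the mesonephros, and RNA of the whole gonad was sequenced, which gave 5 GPI libraries and 5 vehicle libraries from mice M1 to M5. The inhibitor was added to whole gonads and so not directed at a single cell type, and GPI here never means glucose phosphate isomerase, whose gene is Gpi1. Vehicle libraries held 10203679 to 15590223 counts (median 11114376) and GPI libraries 11025409 to 15635322 (median 11691690).

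Glycogen is a branched polymer of glucose from which cells can release glucose phosphate when they need it. Phosphoglucomutase turns glucose 6-phosphate into glucose 1-phosphate, UDP-glucose pyrophosphorylase couples it to UTP, glycogenin starts a chain on itself, glycogen synthase lengthens the chain, and the branching enzyme adds side chains. Breakdown runs through glycogen phosphorylase, the target of the inhibitor. In the mouse fetal testis, Sertoli cells, which surround the germ cells and support them, hold glycogen for a short time after sex determination.

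The GPI library of mouse M1 stood apart from the other GPI libraries. Compared over genes, chi-square per degree of freedom was 21.7 to 27.8 between it and the other 4 GPI libraries and 7.48 to 11.0 among those 4, while pairs of vehicle libraries gave 6.42 to 21.2. Results that rest on mouse M1 are therefore given with and without both of its gonads.

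The low-count filter set Gys2 aside, which left 6 of the 7 genes for testing. Of these 6, 1 was called higher with GPI and 0 lower at an FDR of 0.05 (edgeR's quasi-likelihood test, paired by mouse, with Benjamini-Hochberg adjustment over 13941 genes). Over all tested genes 22.9% were called, 11.1% higher and 11.9% lower, so that a single call in 6 was close to the share of the whole table. The balance of directions depends on the scaling, with 1238 higher and 1972 lower when only total counts were used, against 1544 and 1654 here. DESeq2 and limma-voom also called 1 higher and 0 lower. At an unadjusted p under 0.05 in the edgeR fit there were 1 higher and 1 lower, where 4742 of all 13941 tested genes were under it. The gene called was Gyg. Without mouse M1 the calls were different, with Pgm1 lower and Gyg no longer past the threshold, against 12.1% of 13962 genes called lower and 22.1% called either way.

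**Figure D1:**
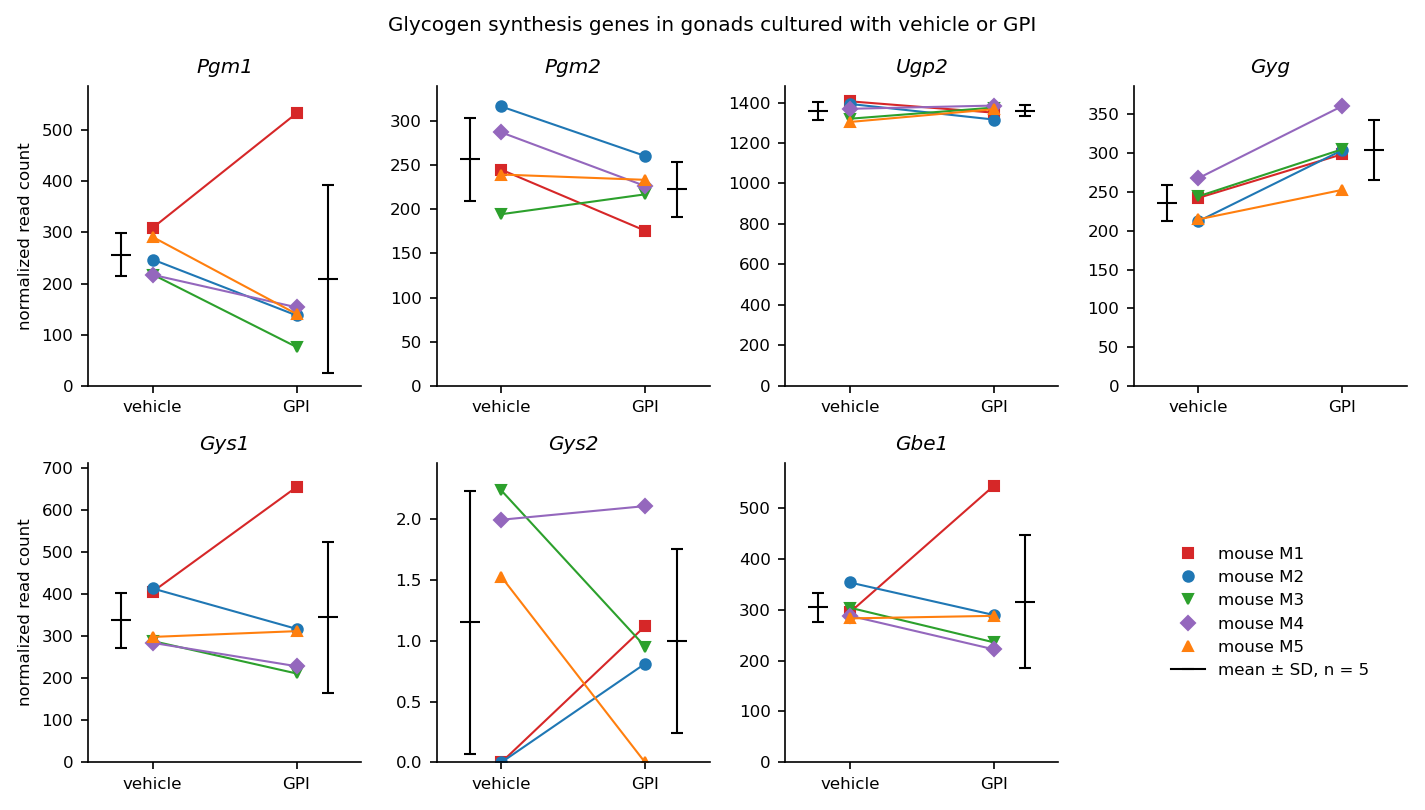
Normalized read counts (y axis, from 0) of the 7 glycogen synthesis genes with vehicle and with GPI. Points joined by a line are the gonads of 1 mouse, and black bars give the mean ± SD of 5 libraries. Gyg rose in every mouse, while the GPI library of M1 was the highest of all 10 for Pgm1 (533), Gys1 (654) and Gbe1 (543).

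Pgm1, Gys1 and Gbe1 had in common a GPI library of M1 above every other library, and the sequences just upstream of their start sites are shown for that reason. All are from RefSeq, assembly GRCm38.p6, on the plus strand, and cover the 250 bases before the start site at chr4:99929201-99929450 for Pgm1, chr7:45434589-45434838 for Gys1 and chr16:70313699-70313948 for Gbe1. Capitals mark ACGTG, which with GCGTG makes up the core of the element bound by hypoxia-inducible factors. Both were searched on both strands, as ACGTG or CACGT and as GCGTG or CACGC.
Pgm1: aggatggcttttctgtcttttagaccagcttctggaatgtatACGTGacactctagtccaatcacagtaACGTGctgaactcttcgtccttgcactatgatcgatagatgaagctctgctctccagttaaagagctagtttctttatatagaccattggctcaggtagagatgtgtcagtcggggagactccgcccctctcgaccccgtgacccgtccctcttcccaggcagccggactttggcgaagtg
Gys1: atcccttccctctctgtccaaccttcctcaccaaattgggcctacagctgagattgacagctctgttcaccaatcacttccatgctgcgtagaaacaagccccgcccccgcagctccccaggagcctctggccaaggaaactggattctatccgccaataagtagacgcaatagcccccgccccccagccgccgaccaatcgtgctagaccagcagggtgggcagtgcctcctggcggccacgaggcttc
Gbe1: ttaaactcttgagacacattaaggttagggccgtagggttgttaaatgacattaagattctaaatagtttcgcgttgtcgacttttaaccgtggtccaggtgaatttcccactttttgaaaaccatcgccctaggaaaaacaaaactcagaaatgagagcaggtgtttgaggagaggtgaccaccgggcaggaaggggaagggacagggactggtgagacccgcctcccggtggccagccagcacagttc
The Pgm1 window held ACGTG at 208 to 204 and at 181 to 177 bases before the start site, both on the plus strand, and 0 matches to GCGTG. The Gys1 and Gbe1 windows held 0 matches to either motif. Among 32851 windows of the same length, 16.6% held ACGTG, 6.81% held it at least 2 times, and 28.2% held GCGTG. Overlapping matches on opposite strands count separately, so 1 CACGTG gives 2 matches. The 6.81% may therefore include windows with a single such site, unlike the 2 separate sites of Pgm1. The letters ACGTG are also part of CACGTG, the E-box, but that longer motif occurred 0 times in the 3 windows. Of the 7 genes, 6 had a window in the table, all but Gys2. Gyg held 1 GCGTG, Pgm2 held 1 ACGTG, and of the windows of Ugp2 the first held 1 ACGTG and 5 GCGTG and the other 0 of each. A match describes the letters and does not show that a factor binds there.

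Levels of different genes can be compared only per length, so counts scaled to library size (CPM) were divided by the length of the longest transcript in kb. On that scale Ugp2 was the highest of the 7 with vehicle, at 41.1 ± 1.35 (SD, n = 5), above every other member in every library. Gyg followed at 9.99 ± 0.977, Pgm2 at 8.78 ± 1.61, Pgm1 at 8.25 ± 1.35, Gys1 at 7.45 ± 1.44 and Gbe1 at 6.62 ± 0.617 (each SD, n = 5). The libraries of neighbours in this order overlapped from Gyg down to Gbe1, so on this scale neighbours among these 5 genes did not differ beyond their spread. Even so, Gyg (8.97 to 11.3) lay above Gbe1 (6.14 to 7.68) in every library. Gys2 was at 0.0351 ± 0.0330, below every other member in every library. With GPI the order began again with Ugp2 (41.1 ± 0.819) and Gyg (12.9 ± 1.62), and Gyg no longer overlapped Pgm2 (7.62 ± 1.05). Pgm1 moved to the sixth place with a wide spread, 6.70 ± 5.92, made by 17.1 in M1 against 2.45 to 4.94 in the other 4 mice.

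**Figure D2:**
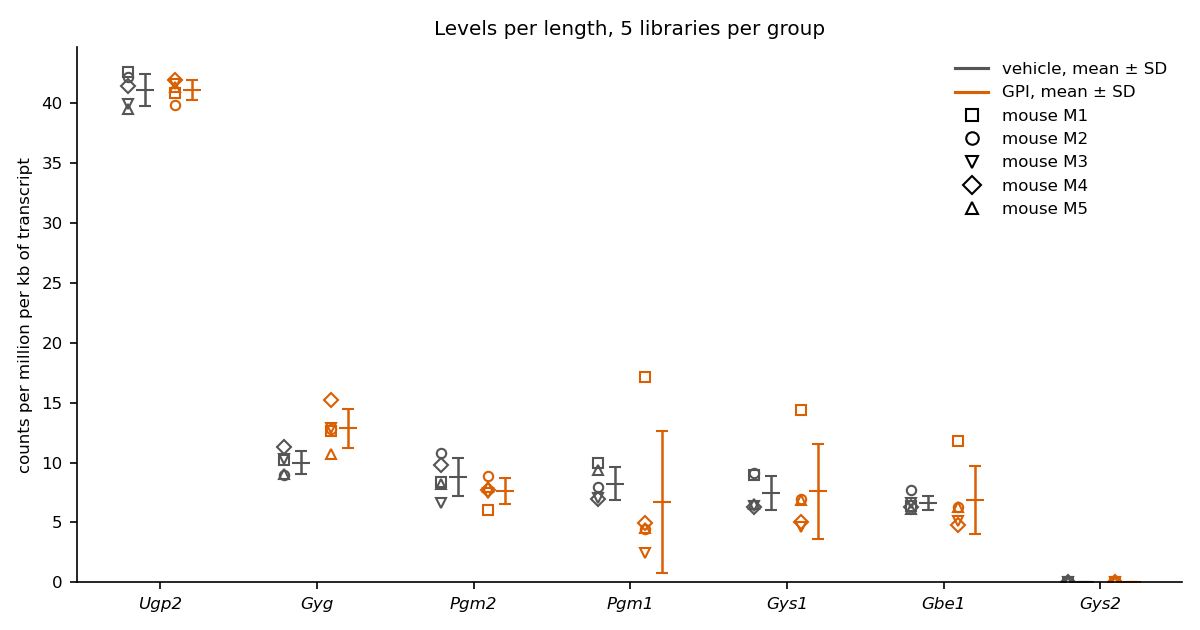
Levels of the 7 genes in CPM per kb of transcript (y axis, from 0), with 1 open symbol per library and bars for the mean ± SD of 5 libraries. Ugp2 stood far above the rest at 41.1, Gys2 lay near 0, and the other 5 genes lay between them, each overlapping its neighbour with vehicle.

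Pgm1 (Entrez Gene 72157, mm10 chromosome 4 from 99929451 to 99987294) encodes the phosphoglucomutase that makes the glucose 1-phosphate used for glycogen. RefSeq gives Pgm2 among its older names and Pgm1 among those of the gene now called Pgm2, so their Entrez numbers are given here. With vehicle, Pgm1 had 309, 247, 218, 217 and 291 normalized counts in mice M1 to M5. With GPI it had 533, 138, 76.1, 154 and 141. The M1 library was the highest of all 10, and the other 4 GPI libraries lay below every vehicle library. Over 5 mice the log2 fold change was -0.59 (standard error 0.25, 95% interval -1.13 to -0.06), which did not pass the threshold (edgeR, adjusted p = 0.108). The log2 ratio within a mouse was 0.78 in M1 and -0.83, -1.49, -0.49 and -1.04 in M2 to M5. Without mouse M1 the log2 fold change was -0.98 (standard error 0.17, edgeR adjusted p = 0.000698), which puts Pgm1 at 50.7% of its vehicle level in those 4 mice. A rise in M1 with a decrease in the 4 other mice was seen in 3.79% of 13940 tested symbols. The call also appeared when no low-count filter was used (adjusted p = 0.0254). Because whole gonads were sequenced, these counts alone cannot tell fewer cells of a type from less RNA per cell, for Pgm1 or for any gene below. Germ cells were also counted in the study, by DDX4 staining, and were fewer with GPI.

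Pgm2 (Entrez Gene 66681, chromosome 5 from 64092950 to 64128161) encodes a related enzyme that acts mainly on pentose phosphates. It ranged from 194 to 316 normalized counts with vehicle and from 176 to 260.2 with GPI, ranges that overlapped. Its log2 fold change of -0.20 (95% interval -0.47 to 0.07) did not pass the threshold (edgeR, adjusted p = 0.304), and it was lower in 4 of 5 mice. The exception was M3, not M1, whose log2 ratio was -0.47. Within a library, the ratio of Pgm1 to Pgm2 counts needs no scaling. It was 1.26, 0.781, 1.12, 0.757 and 1.22 with vehicle in M1 to M5 and 3.03, 0.530, 0.351, 0.679 and 0.603 with GPI. The change was -0.43 ± 1.10 on the log2 scale (SD, n = 5 mice), lower in 4 mice and higher in M1. It was -0.85 without M1 and -0.12 without M3, the extremes on leaving out 1 mouse. An exact two-sided sign-flip permutation test over the 5 mice gave p = 0.438, adjusted p = 0.438 over the 3 ratios tested, where the smallest p that 5 mice allow is 0.0625.

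Ugp2 (Entrez Gene 216558, chromosome 11 from 21321126 to 21371267) encodes the enzyme that makes UDP-glucose, the glucose donor for glycogen and for many other sugar chains. Its libraries lay close together, from 1304 to 1406 normalized counts with vehicle and from 1316 to 1385 with GPI. The log2 fold change was 0.00 (edgeR, adjusted p = 0.996), and the 95% interval, -0.15 to 0.15, limits a change to between 0.900 and 1.11 times the vehicle level. M1 did not stand apart here, with a log2 ratio of -0.06. The entry overlaps Vps54 on the other strand and Mir1933 on its own, and since reads were counted without regard to strand, their reads cannot be told apart where they overlap.

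Gyg (Entrez Gene 27357, chromosome 3 from 20122084 to 20155116) encodes glycogenin, the protein on which a glycogen chain begins. With vehicle it had 242, 212, 245, 268 and 215 normalized counts in M1 to M5. With GPI it had 299, 304, 305, 361 and 253. Every GPI library was above the vehicle library of the same mouse, although the lowest GPI library, M5, lay below the highest vehicle library, M4. The log2 fold change was 0.36 (standard error 0.11, 95% interval 0.13 to 0.59), a 1.28-fold increase (edgeR, adjusted p = 0.0269). It was higher in 5 of 5 mice and the only member with the same direction in all 5, where 15.4% of 13940 tested symbols were higher in all 5 and 30.5% had the same direction either way. No member had groups that did not overlap, against 16.1% of those symbols, 7.07% with all GPI libraries above. The size of the change held without M1 (0.36), but with 4 mice the adjusted p was 0.0531 without M1, 0.0586 without M2, 0.0901 without M3 and 0.100 without M4. Scaling by total counts alone gave 0.31 (adjusted p = 0.0613).

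Profiles over the 10 libraries were compared by the root-mean-square difference of centred log2 CPM, for genes averaging 50 counts or more, and the 3 nearest to Gyg were Maoa, Mettl8 and Hspa13. The differences were 0.0661, 0.0734 and 0.0833, against a median of 0.306 over 11104 genes. Their log2 fold changes were 0.41 for Maoa and 0.40 for Hspa13, which passed the threshold (edgeR, adjusted p = 0.00577 and 0.00154), and 0.39 for Mettl8, which did not (adjusted p = 0.0774).

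Gys1 (Entrez Gene 14936, chromosome 7 from 45434839 to 45456617) encodes the glycogen synthase found in muscle and most other tissues. Its vehicle libraries had 405, 413, 288, 284 and 298 normalized counts in M1 to M5, and its GPI libraries 654, 317, 211, 228 and 312. M1 with GPI was again the highest library, and the ranges of the other 4 mice overlapped between treatments. The log2 fold change was -0.07 (95% interval -0.40 to 0.26) and did not pass the threshold (edgeR, adjusted p = 0.804). The log2 ratio was 0.69 in M1, -0.38, -0.44 and -0.31 in M2, M3 and M4, and 0.06 in M5. Without M1 the log2 fold change was -0.28 (edgeR, adjusted p = 0.141).

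Gys2 (Entrez Gene 232493, chromosome 6 from 142422613 to 142473109), the liver form of glycogen synthase, was close to undetected. It had 0, 0, 2, 2 and 2 counts with vehicle and 1, 1, 1, 2 and 0 with GPI, so no difference could be read at this depth. Of the glycogen synthase genes, Gys1 thus held nearly all counts in every library.

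Gbe1 (Entrez Gene 74185, chromosome 16 from 70313949 to 70569720) encodes the branching enzyme. It had 295, 353, 304, 288 and 283 normalized counts with vehicle and 543, 289, 236, 222 and 288 with GPI. As with Gys1, M1 with GPI was far above the rest, M2, M3 and M4 were lower with GPI, and M5 was nearly level. The log2 fold change was -0.02 (95% interval -0.38 to 0.34; edgeR, adjusted p = 0.951), and -0.27 without M1 (adjusted p = 0.163). The ratio of Gbe1 to Gys1 within a library moved by 0.05 ± 0.10 on the log2 scale (SD, n = 5 mice), and in M1 by 0.19. An exact two-sided sign-flip permutation test gave p = 0.375, adjusted p = 0.438. With 5 mice that test cannot give a p below 0.0625, so it does not show that the ratio was stable.

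**Figure D3:**
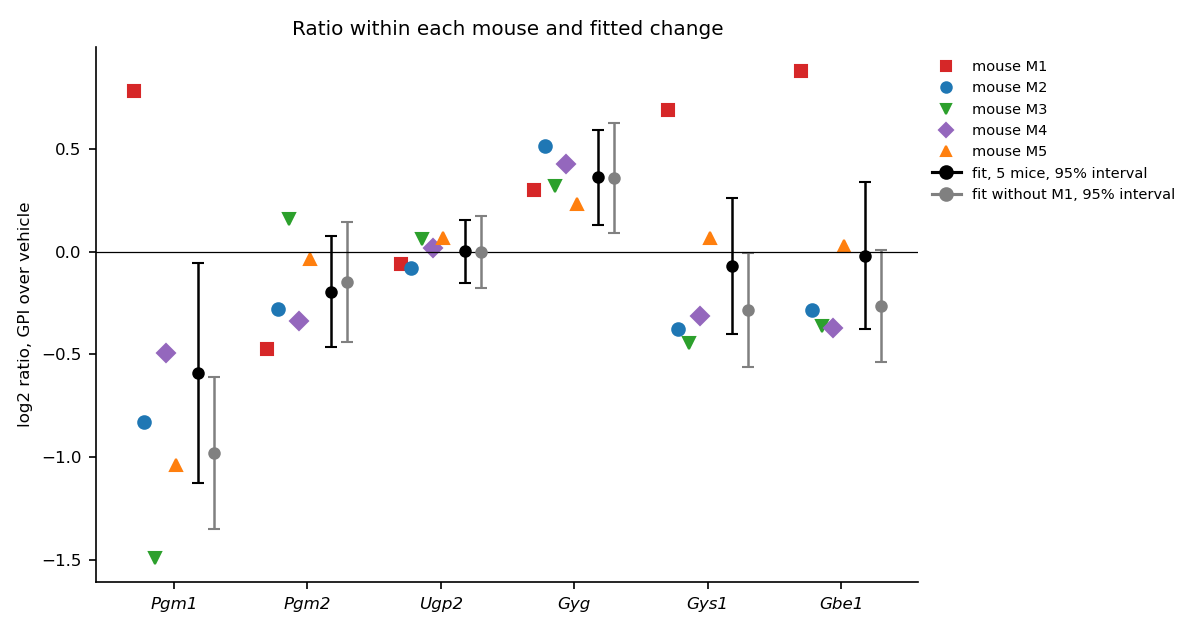
Log2 ratio of GPI over vehicle (y axis) for the 6 tested genes. Coloured symbols are single mice, and black and grey points are fitted log2 fold changes with 95% intervals, over 5 mice and without M1. Leaving out M1 moved Pgm1 from -0.59 to -0.98, Gys1 from -0.07 to -0.28 and Gbe1 from -0.02 to -0.27, and left Ugp2 at 0.00 and Gyg at 0.36.

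Genes with the profile nearest to those of Pgm1, Gys1 and Gbe1 were looked up after their values had been seen. Nearest to Pgm1 were Tpi1 (0.165), Plekha2 (0.188) and Eno1 (0.193), each value a root-mean-square difference, and 2 of them, Tpi1 and Eno1, encode glycolytic enzymes. Tpi1, which overlaps Spsb2, had a log2 ratio of 0.73 in M1 and of -1.36 to -0.69 in the other mice, and Eno1 of 0.75 and of -1.68 to -0.95. Nearest to Gys1 was Gbe1 itself (0.170), before Gpr146 (0.172) and Mif (0.182). Nearest to Gbe1 were Ccnd2 (0.134), Urb1 (0.152) and Epb41l4aos (0.158).

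A list of 16 glycolysis genes, from the hexokinases that phosphorylate glucose to lactate dehydrogenase, showed the same division between M1 and the other mice. All 16 were tested, 2 were higher and 9 lower with GPI, where 22.9% of all tested genes were called. Their median log2 fold change was -0.64, where the median over all tested genes was 0.02. In M1 all 16 were higher with GPI and the median log2 ratio was 0.46, while in M2 to M5 the medians were -0.64, -0.93, -0.98 and -0.84. Without M1, 2 were higher and 11 lower, with a median of -0.92, and the median was -0.92 to -0.49 over all ways of leaving out 1 mouse. The number called fell to 6 without M3 or without M4, and to 7 with DESeq2. The genes with the smallest p were Pfkp (-1.78), which overlaps Pitrm1, Ldha (-1.11) and Pkm (-0.89) among those lower, and Ldhb (0.49) and Hk2 (0.47) among those higher. Without M1 these genes had, in the same order, -2.31, -1.45, -1.215, 0.52 and 0.40. Without the replicate block 2 of the 16 were called, Ldhb and Hk2, and the median was -0.41, with Pfkp at -1.25 and Ldha at -0.74.

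Of 15 known targets of hypoxia-inducible factors, 13 were lower, against 11.9% of all tested genes, and 0 higher, with a median log2 fold change of -1.02. The lower genes with the smallest p were Adm (-1.79, and -2.31 without M1), Egln3 (-2.27, and -3.02 without M1) and P4ha1 (-0.86, and -1.12 without M1). The median log2 ratio was 0.46 in M1, where 13 of 15 were higher, and -1.20, -1.53, -1.42 and -1.50 in M2 to M5. Without M1, 14 were lower and 0 higher, with a median of -1.41 (-1.41 to -0.89 over all ways of leaving out 1 mouse). Without the replicate block 2 were called and the median was -0.67, with Egln3 (-1.51) and P4ha1 (-0.70) not among those called. Summed over the list, normalized counts were 28696, 24235, 20354, 20263 and 21258 with vehicle and 38767, 11296, 6939, 7387 and 8614 with GPI, and Ldha was the most abundant gene. Lists overlap, so their counts are not separate: Ldha and Pgk1 are also in the glycolysis list, Slc2a1 is also in the glucose phosphate list below, and Hk1, Hk2 and Gpi1, all called, are in the glycolysis and the glucose phosphate list. In M1, Pgm1, Gys1 and Gbe1 were thus higher together with both lists. Whether oxygen supply, or another property of the M1 culture, had a part in their values was not tested.

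**Figure D4:**
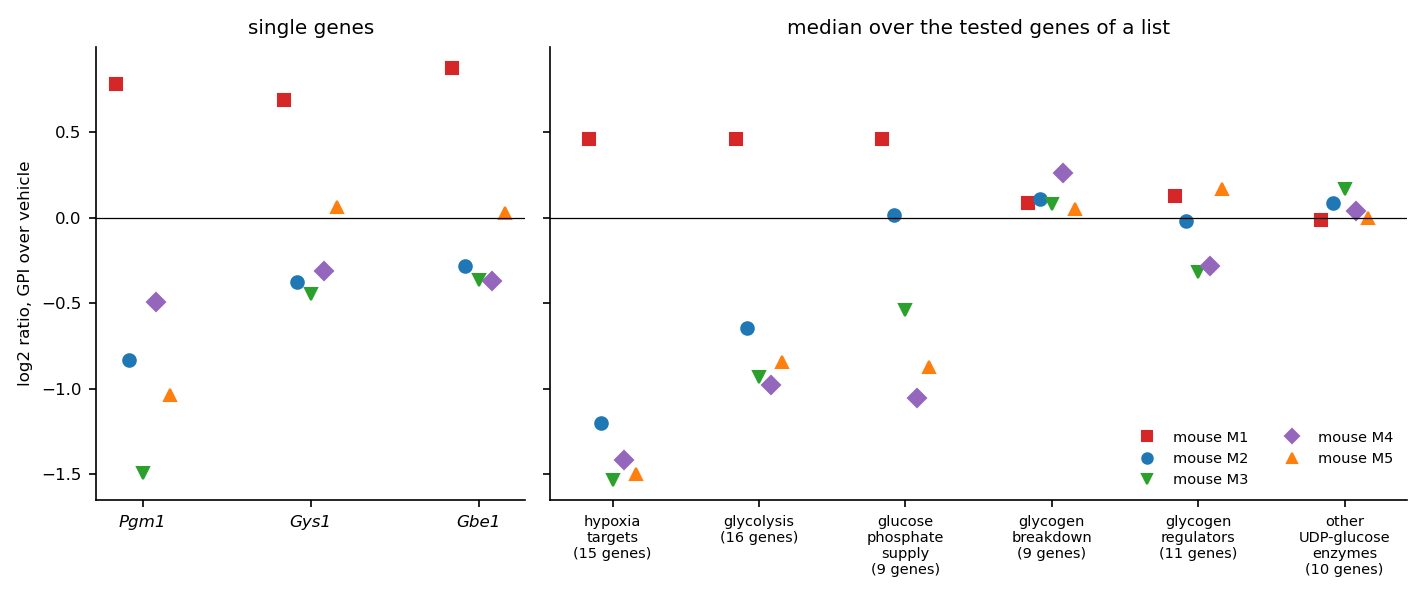
Log2 ratio of GPI over vehicle (y axis) in each mouse, on the left for Pgm1, Gys1 and Gbe1 and on the right as the median over the tested genes of each list. M1 lay apart for the hypoxia targets (0.46 against -1.53 to -1.20) and for glycolysis (0.46 against -0.98 to -0.64), but not for glycogen breakdown or the other enzymes of UDP-glucose.

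Other genes supply or use glucose phosphate. In a list of 14, 9 were tested, 3 were higher and 4 lower, where 22.9% of all tested genes were called. The median was -0.37, and G6pc had 0 counts in every library. The median log2 ratio was 0.46 in M1, where 8 of the 9 were higher, and 0.0147, -0.538, -1.055 and -0.876 in M2 to M5. Without M1, 3 were higher and 5 lower, with a median of -0.57, and over all ways of leaving out 1 mouse the median was -0.57 to -0.19. Pgm2l1, a relative of Pgm2 that makes the glucose 1,6-bisphosphate needed by phosphoglucomutase, had 2227, 2041, 2266, 2317 and 2244 normalized counts with vehicle. With GPI it had 693, 817, 773, 709 and 803, so the groups were far apart and M1 did not differ from the rest. Its log2 fold change was -1.55 (standard error 0.08, edgeR adjusted p = 2.42e-08), lower in 5 of 5 mice. Per length, Pgm2l1 was at 20.4 ± 0.967 with vehicle, above both Pgm1 and Pgm2, and at 6.97 ± 0.512 with GPI (SD, n = 5). Pgm2l1 overlaps Gpx2-ps1 on the same strand.

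Further genes of the phosphoglucomutase family went the other way. Pgm3, which acts on N-acetylglucosamine phosphate, was higher with GPI (log2 fold change 0.55, standard error 0.13, edgeR adjusted p = 0.00648), and so was Pgm5 (0.82, standard error 0.13, adjusted p = 0.000554), which encodes a protein of cell junctions without known mutase activity. Both were higher in 5 of 5 mice, although the call of Pgm3 was lost without M3 (0.46, adjusted p = 0.0510), and both overlap a gene on the other strand, Dop1a and Tmem252. Of the genes that bring in glucose and phosphorylate it, Slc2a1 (-0.91) and Hk1 (-0.96), which overlaps Hk1os, were lower and Hk2 (0.47) was higher. Slc2a1 and Hk1 were higher in M1, with log2 ratios of 0.46 and 0.43, and without M1 their log2 fold changes were -1.26 and -1.34. Without the replicate block both calls were lost (-0.56, adjusted p = 0.348, and -0.77, adjusted p = 0.0825).

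Among 10 breakdown genes, 9 were tested, 2 were higher and 0 lower, close to the 22.9% of all tested genes that were called. The median log2 fold change was 0.15 (without M1 2 higher, 1 lower, median 0.08). The genes called were Phkb (0.37, edgeR adjusted p = 0.00829) and Phka1 (0.39, adjusted p = 0.0272), which encode subunits of phosphorylase kinase, the enzyme that activates glycogen phosphorylase. The call of Phka1 was lost in 5 of 12 alternatives (adjusted p up to 0.151) and that of Phkb in 2 (up to 0.0537). The phosphorylase genes themselves did not pass the threshold in the edgeR fit with the low-count filter and TMM scaling over 5 mice. Pygb, the brain form and the highest of them per length, at 25.1 ± 2.16 with vehicle and 27.9 ± 3.46 with GPI (SD, n = 5), had a log2 fold change of 0.15 (adjusted p = 0.299), and 0.04 to 0.20 on leaving out 1 mouse. Pygl, the liver form, had -0.39 (adjusted p = 0.0608) and was higher in M1 and lower in the other 4 mice, and without M1 it had -0.57 (adjusted p = 0.00364), which passed. Pygl also passed with DESeq2 (-0.40, adjusted p = 0.0421), with total counts (adjusted p = 0.0388) and without the low-count filter (adjusted p = 0.0276). Pygm, the muscle form, had -0.39 (adjusted p = 0.353), and -0.62 to -0.17 on leaving out 1 mouse. DESeq2 called 4 of the 9, Pygl among them.

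The ratio of Gys1 to Pygb counts sets synthesis beside breakdown within a library. It was 0.329, 0.394, 0.235, 0.212 and 0.250 with vehicle and 0.582, 0.202, 0.163, 0.160 and 0.239 with GPI in M1 to M5. The change was -0.23 ± 0.67 on the log2 scale (SD, n = 5 mice), lower in 4 mice and 0.82 higher in M1, and it was smaller than the spread between mice (exact two-sided sign-flip permutation test, p = 0.438, adjusted p = 0.438). It was -0.49 without M1 and -0.04 without M2, the extremes on leaving out 1 mouse.

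Among 12 regulators of glycogen, 11 were tested, 1 was higher and 1 lower, close to the 22.9% of all tested genes that were called. The median was -0.18. Without M1, 0 were higher and 2 lower, with a median of -0.26, and over all ways of leaving out 1 mouse the median was -0.26 to -0.01. Ppp1r3c, which encodes a protein that brings phosphatase to glycogen and thereby activates glycogen synthase, had 254, 253, 261, 237 and 254 normalized counts with vehicle. With GPI it had 276, 151, 147, 195 and 124, so that M1 alone stayed above the vehicle libraries and the other 4 fell below them. Its log2 fold change was -0.55 (standard error 0.16, edgeR adjusted p = 0.0262), and -0.74 without M1 (adjusted p = 0.00269). The call was lost on leaving out M2, M3 or M5 (adjusted p = 0.0829 to 0.112) and without the replicate block (0.0531). The gene called higher was Ppp1r3a, a muscle relative of Ppp1r3c, with 1.10 (adjusted p = 0.0318) over 5 mice and 0.87 without M1 (adjusted p = 0.0701), and its call was lost in 6 of 12 alternatives. Called lower only without M1 was Ppp1r3b, named after its values were seen, with -0.34 over 5 mice (adjusted p = 0.444) and -0.79 without M1 (adjusted p = 0.00182), and a log2 ratio of 1.40 in M1.

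Of 10 other enzymes that make or use UDP-glucose, all were tested. With GPI 1 was higher and 1 lower, close to the 22.9% of all tested genes that were called. Ugcg, which transfers glucose from UDP-glucose to ceramide, was higher (0.61, adjusted p = 3.88e-05) and Galk1, of galactose use, which overlaps Itgb4, was lower (-0.65, adjusted p = 0.0411), a call lost on leaving out M2, M3, M4 or M5 (adjusted p = 0.0846 to 0.134). The median of the list was 0.14, also without M1, and 0.07 without M4, its lowest on leaving out 1 mouse.

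**Figure D5:**
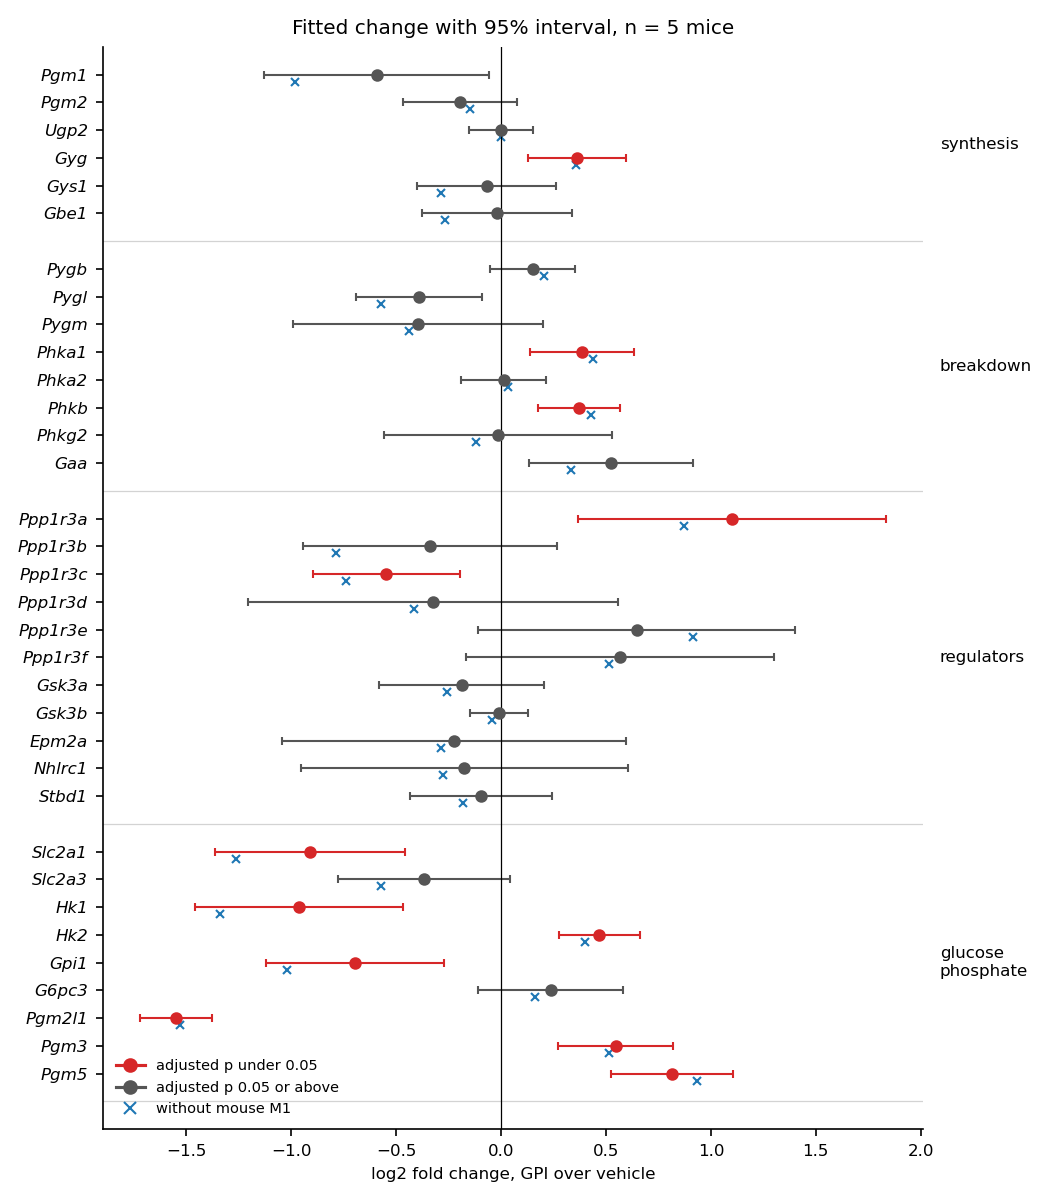
Fitted log2 fold change of GPI over vehicle (x axis) for tested genes of glycogen synthesis, breakdown, regulation and glucose phosphate supply, with 95% intervals from 5 mice. Red points passed the FDR of 0.05, grey points did not, and crosses give the value without M1. Pgm2l1 lay lowest at -1.55, and of the synthesis genes only Gyg, at 0.36, passed over 5 mice.

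The cell types of the gonad changed in their marker levels at the same time. The share to set beside each count of called markers is the 22.9% of all tested genes that were called. Of 10 Sertoli cell genes 8 were higher and 0 lower (median log2 fold change 0.60), including Sox9 (0.59), and the most abundant was Aard. Their normalized counts summed to 3722, 5852, 4399, 5548 and 6119 with vehicle and to 4431, 8145, 8465, 10599 and 8133 with GPI. The Sertoli cell genes not called were Amh (0.08, edgeR adjusted p = 0.842) and Cst9 (-0.19, adjusted p = 0.422), named after their values were seen. Of 4 tested fetal Leydig cell genes 4 were higher (median 2.32), including Cyp17a1 (3.90) and the most abundant, Hsd3b1 (1.75), with sums of 1280 to 5303 with vehicle and 9634 to 18089 with GPI. M1 had the lowest sum of each list in both treatments.

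Markers of germ cells were low with GPI. All 6 tested genes were lower (median -4.76), including Ddx4 (-2.72) and the most abundant, Dazl (-4.62), with sums of 676 to 2092 with vehicle and 39.9 to 162 with GPI, the last of these in M1. Of 6 endothelial genes 6 were lower (median -3.28), including Pecam1 (-4.16) and the most abundant, Cdh5 (-3.63), which overlaps Gm29682, with sums of 6633 to 7759 and 517 to 937. Of 5 macrophage genes 4 were lower (median -2.22), with Adgre1 at -0.26 not called and Cd68 the most abundant (-0.76), and sums of 329 to 513 and 113 to 259.7. Of 4 erythroid genes 4 were lower (median -2.71), including Hba-a1 (-1.59) and the most abundant, Hbb-bt (-3.84), with sums of 353 to 1187 and 133 to 235.

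Of 4 interstitial genes 1 was higher, Pdgfra (0.33), the most abundant, which overlaps Mir7025, and 2 lower, with Nr2f2 (-0.18), which overlaps B130024G19Rik, not called and sums of 11106 to 13346 and 11468 to 14084. Of 5 pre-granulosa genes 1 was higher, Bmp2, and 1 lower, Wnt4 (-0.78), the most abundant, while Foxl2 (-0.54) was not called, with sums of 1521 to 1859 and 985 to 1489. Of 4 genes of mesonephric tubules only Pax8 was tested (-0.28, and -0.01 without M1, not called), and Pax2 had too few counts. The sums were 59.4 to 557 and 94.8 to 226, where 557 was the vehicle library of M1 and the next was 270.2. Bmp2 is named after its values were seen. None of these marker lists had a gene at 0 counts in every library. Without M1 the numbers called were the same in every marker list except that of germ cells, where 7 of 7 were then tested and lower. M1 was within the range of the other GPI libraries for the endothelial, erythroid, interstitial and mesonephric tubule sums. How much of the change in Gyg, Pgm1 or Pgm2l1 came with these changes in cell types was not tested.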

How the data were processed

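Raw counts deposited by the authors were used. The authors aligned reads with STAR 2.5 to mm10 and counted them with featureCounts (Subread 1.5.0-p1) over NCBI RefSeq Curated genes without regard to strand. Libraries were amplified (Ovation RNA-Seq System V2) without unique molecular identifiers, so the precision given comes from the spread between mice. Treatment was tested with edgeR 4.0.16 quasi-likelihood (filterByExpr, TMM, mouse as a block, Benjamini-Hochberg over all tested genes, FDR 0.05) in R 4.3.3. DESeq2 1.42.0 and limma 3.58.1 served as alternatives. Ratios were tested by exact sign-flip permutation. Normalized counts are counts divided by effective library size times its mean. Per-mouse log2 ratios used a prior count of 2. Levels used GENCODE M21 lengths and motif windows RefSeq GRCm38.p6. Library distances used genes with enough counts in total. Figures were drawn with matplotlib 3.10.9, tables made with pandas 2.3.3 and numpy 2.4.6 (Python 3.11.15). Named were every member, of each pathway list the called genes with the smallest p (at most 3 a direction), and the phosphorylases and Ppp1r3c. Of each marker list the first and the most abundant gene were named, and of each called member the 3 nearest profiles. The nearest profiles of Pgm1, Gys1 and Gbe1, and the genes Ppp1r3b, Bmp2, Amh and Cst9, were named after their values were seen. Members and lists were chosen with earlier results of these data known. With each gene centred within a treatment, the correlation between the gonads of a mouse averaged 0.06 (-0.0398 to 0.155), against -0.01 between mice. The centring ties the average between mice to that within mice, so their contrast does not show how alike the gonads of a mouse were.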

Additional observations from a re-analysis of the deposited data

Results flagged for a closer look

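A value far from its neighbours was looked for among 5 libraries or mice, by the gap to the nearest value as a share of the whole range. This covered 57 series: counts of the tested members, Pgm2l1 and Ppp1r3c, log2 ratios of the members, the gene ratios and their changes, medians of the pathway lists, and sums of the hypoxia targets and the marker lists. Of these series 9 were flagged, where chance flags about 1 in 20 groups. The series share libraries and genes, so the flags are not separate findings. For the GPI counts of Gys1 the share was 0.761, for those of Gbe1 0.790 and for those of Pgm1 0.830, each time for M1. With GPI it was 0.878 for the ratio of Pgm1 to Pgm2, 0.812 for that of Gys1 to Pygb and 0.863 for the summed hypoxia targets, again for M1. For the median log2 ratio per mouse it was 0.733 for glycogen breakdown, where M4 was the highest, 0.768 for glycolysis and 0.833 for the hypoxia targets, the last 2 for M1. The M1 values are those described above with and without this mouse. What set M1 apart was not tested.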

How the results depend on the processing

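The analysis was repeated with 12 alternatives. Pgm2l1 was called lower in all 12 (-1.61 to -1.51). Gyg stayed higher, but scaling by total counts alone gave 0.31 (adjusted p = 0.0613), and leaving out each mouse in turn gave 0.32 to 0.39, with the threshold passed only without M5 (adjusted p = 0.0443). Pgm1 passed without the low-count filter (-0.60) and ranged from -0.98 without M1 to -0.40 on leaving out each mouse. For Gys1 this range was -0.284 to 0.0150, for Gbe1 -0.266 to 0.0662 and for Ugp2 -0.0310 to 0.0217. Gbe1 was 0.0126 with limma-voom. Ugp2 was -0.00826 with DESeq2, -0.00830 with DESeq2 size factors, -0.00918 with at least 10 counts required in every library, -0.0500 with total counts and -0.00319 without the filter. Fewer mice are left when 1 is taken out; otherwise the cause of these differences was not tested.

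Without the replicate block, Gys1 was 0.0272, Gbe1 0.0503 and Pgm1 -0.31, 3108 genes were called in the whole table, and 0 regulators, 4 supply genes, 2 glycolysis genes and 2 hypoxia targets.

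Members called higher were 0 with total counts and 0 to 1 on leaving out each mouse. Members called lower were 1 without the low-count filter and 0 to 1 on leaving out each mouse. Over the whole table, genes called higher then ranged from 969 to 1430. Breakdown genes called were 4 with DESeq2 and without the filter and 0 to 3 on leaving out each mouse, regulators 1 with DESeq2 and limma-voom and 0 to 2, UDP-glucose enzymes 1 to 2, and glycolysis genes 7 with DESeq2 and 6 to 13. Per kb of coding sequence, vehicle levels were 72.3 for Ugp2, 17.0 for Gyg, 12.0 for Pgm1, 11.2 for Pgm2, 12.4 for Gys1 and 11.7 for Gbe1. The order after Gyg thus changed with the length used, with Gys1 next and Pgm2 the lowest of those named. Overlap between neighbours was examined per kb of transcript only. At this depth Gys2, with 0 to 2 counts a library, could not be tested.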
